A study of Homo sapiens with 4 samples.

Results

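The genes described here carry cells through mitosis or belong to the kinesin and centromere gene families. Members were chosen by symbol: every KIF gene (42), every CENP gene (19) and 29 mitotic regulators listed by name, together 90 of the 23217 gene symbols in the table. Of the 90, 60 were assigned a role in mitosis here and 30 another role, mostly transport of cargo along microtubules. A level is given as FPKM (a count of sequenced fragments corrected for transcript length and for library size), summed over the listed transcripts of a gene. A mean FPKM over both conditions of at least 1 was reached by 76 members and by 12334 genes in all. The 14 members below it were all KIF genes, with mean FPKM of at most 0.766, whereas the lowest of the 76 had 2.18. KIF2B, KIF19, KIF26A and KIF6 were listed at 0 in both conditions, and KIF12 in 1 of them.

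RNA-seq had been carried out on LV-M100 cells, a single clone of the human triple-negative breast cancer line MDA-MB-231 that was selected for low variability between cells. Cells were transfected with siRNA and lysed after 48 h, and ribosomal RNA was removed before sequencing. The siControl group had 2 libraries, replicate 1 with the NC1 control siRNA and replicate 2 with the BLOCK-iT Fluorescent Oligo. The siSNRNP40 group also had 2, each with a different siRNA against SNRNP40, which belongs to the U5 particle of the spliceosome. All 4 libraries came from transfected cells of the same clone. The comparison asks which transcripts depend on SNRNP40. For each transcript the deposited table holds 1 value per condition, pooled over its 2 libraries. No value here therefore has a replicate error, no test was run, the depth is unknown, and the siRNAs cannot be compared. The p-values and q-values that the table holds for the transcripts were not used. Every difference below is the difference of 2 pooled values.

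Chromosomes are prepared for division in a fixed order. CDK1 with its cyclins drives entry into mitosis, kinetochores assembled on the centromere attach chromosomes to spindle microtubules, and motor kinesins build and move the spindle. A checkpoint at unattached kinetochores holds back the anaphase-promoting complex (APC/C), the ubiquitin ligase that removes securin and cyclin B and so starts anaphase. Many of these genes are transcribed late in the cell cycle, through promoters with a CHR element (cell cycle genes homology region), bound by the DREAM and MuvB complexes, and CCAAT boxes bound by NF-Y.

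The strands of the siRNAs given in the labels are shown because they define the treatment.
siSNRNP40 #1: ggaauagacaaugauauc
siSNRNP40 #2: ggauuugaccgacugaua
Both match coding sequence of SNRNP40 in the GRCh37 build, the first at chr1:31754224-31754241 in exon 5 of 10 and the second at chr1:31766067-31766084 in exon 2, on the minus strand. Exact matches among annotated transcripts were found in SNRNP40 and in the pseudogene SNRNP40P1, and in 0 members. SNRNP40 itself had an FPKM of 40.4 in siControl and 6.12 in siSNRNP40, a log2 fold change of -2.72. The fold change is siSNRNP40 over siControl throughout, with no pseudocount. In siControl the line's mesenchymal marker VIM had an FPKM of 750.1, CD44 116 and EGFR 18.3. The receptors ESR1 and PGR, which define the other breast cancer classes, and the epithelial adhesion gene CDH1 lay under 0.1, ERBB2 had 6.56 and EPCAM 10.6. Leukocyte PTPRC and stromal DCN were listed at 0.

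RefSeq promoters (build GRCh38.p14, from 250 bases before the transcription start to 50 after it) were found for 48 of the 58 mitotic members with a mean FPKM of at least 1. A CHR, searched as TTTGAA or TTTAAA on both strands, stood in 32 of the 48 promoters (66.7%), against 24.3% of all 27305 promoters. At least 2 CCAAT boxes stood in 18 (37.5%) against 11.3%. Both features together were found in 14 (29.2%) against 2.77%, and in 0 of the 12 other members with a matched promoter. The windows of 30 bases of these 14 promoters are shown because they hold both features, CENPA, KIF20A and KIFC1 for that reason alone. They are written 5′ to 3′ on the strand of the gene, with the CHR nearest the start in capitals.
CCNB1: agcagtgcggggTTTAAAtctgaggctagg
CCNB2: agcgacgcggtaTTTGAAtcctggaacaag
PTTG1: cgcgagttgtggTTTAAAccaggagtgcgc
CDC20: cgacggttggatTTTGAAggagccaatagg
CDCA8: gtgactgtggagTTTGAAttgggtggcggt
INCENP: tgagccttcagtTTTGAAaatcatagtttt
CENPA: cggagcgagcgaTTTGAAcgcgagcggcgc
CENPF: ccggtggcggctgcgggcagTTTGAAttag
SPC25: aagtgcactaggTTTGAAatcggaaagttg
KIF18B: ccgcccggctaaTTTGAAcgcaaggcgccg
KIF20A: cgcagcgcgtaaTTTAAAatattgtatctg
KIF20B: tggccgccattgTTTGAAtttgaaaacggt
KIFC1: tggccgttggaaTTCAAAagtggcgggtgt
TOP2A: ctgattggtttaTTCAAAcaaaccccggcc
The CCNB1 window lies at chr5:69167108-69167137 on the plus strand, with its CHR starting 30 bases upstream of the start. That of CCNB2 lies at chr15:59105105-59105134 (plus), 29 bases upstream. PTTG1 has its window at chr5:160421814-160421843 (plus), 29 bases upstream, and CDC20 at chr1:43358904-43358933 (plus), 65 bases upstream. For the passenger proteins the windows are at chr1:37692481-37692510 (plus), 23 bases upstream, in CDCA8 and at chr11:62123989-62124018 (plus), 10 bases upstream, in INCENP. At the centromere and kinetochore they are at chr2:26786026-26786055 (plus), 18 bases upstream, in CENPA, at chr1:214603215-214603244 (plus), 40 bases downstream, in CENPF and at chr2:168890416-168890445 (minus), 3 bases upstream, in SPC25. Among the kinesins, KIF18B has its window at chr17:44947754-44947783 (minus), 2 bases downstream, KIF20A at chr5:138179059-138179088 (plus), 41 bases upstream, and KIF20B at chr10:89701602-89701631 (plus), 24 bases downstream. In KIFC1, at chr6:33391815-33391844 (plus), 4 bases downstream, and in TOP2A, at chr17:40418030-40418059 (minus), 151 bases upstream, the element is in reverse. Motif matches are descriptions of letters in these windows and not measured binding sites. Over the 14 members with both features, log2 fold changes ran from -0.29 for KIF20B to 0.083 for SPC25. Their median was -0.18, and it was -0.076 over the other 34.

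Mitotic members were on the whole slightly lower in siSNRNP40, and none was far from its control level. Of the 58 with a mean FPKM of at least 1, 46 (79.3%) had a log2 fold change below 0, where 49.5% of all 12334 genes did. Their median was -0.084 against 0.0034 for all genes, and the values ran from -0.46 for CDC25C to 0.25 for CENPW. The members with other roles had a median of 0.034, with 7 of 18 below 0. In bulk RNA, fewer cells in mitosis and less RNA per cell cannot be told apart. When the conditions were scaled to equal upper quartiles instead, which moved all log2 values by 0.031, 39 of the 58 mitotic members (against 44.5% of all genes) were below 0 and their median was -0.054. That scaling put CCNB2, PRC1, 4 of the mitotic kinesins and 1 inner centromere gene above 0. Limited to genes with a single listed transcript, an alternative chosen after seeing the data, 33 of 37 were below 0 (against 49.4% of all such genes).

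A log2 fold change of more than 0.322 in size, used here as a mark of a larger difference, was shown by few members. Below -0.322 were 2 of the 76, CDC25C and CENPI, where 11.5% of all genes were. Above 0.322 were 3, KIF7, CENPBD1 and KIF24, where 11.9% of all genes were. The other 71 lay between these limits. An absolute log2 fold change above 1 was shown by 0 members and by 1.47% of all genes (0.573% of genes at a mean FPKM of at least 5). These shares of all genes were not matched to the members for level, whose part in the counts was not tested. Mitotic members were highly expressed: their median FPKM in siControl was 51.9 (all genes 10.7), 53 of the 58 lay above an FPKM of 10, and 38 lay above percentile 80 of all genes.

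**Figure D1:**
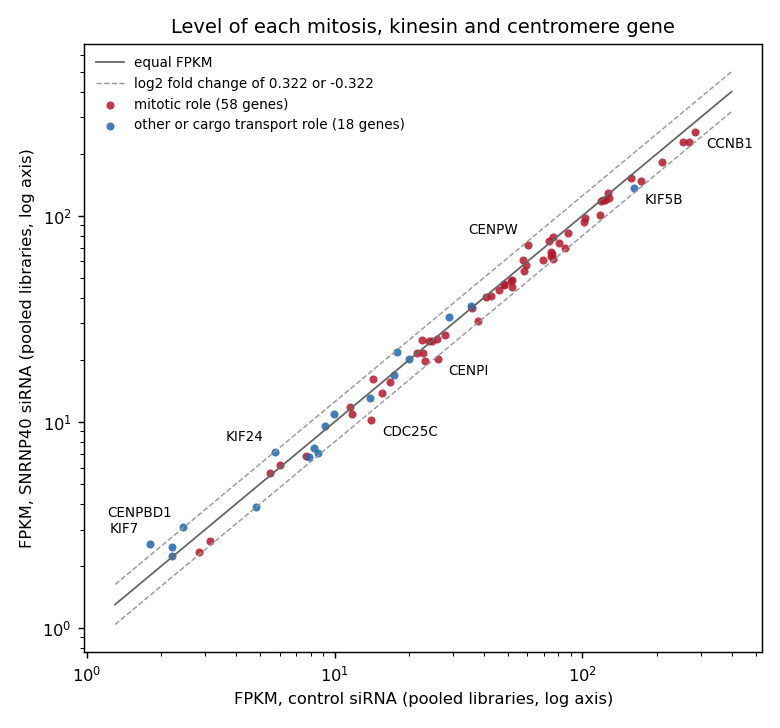
FPKM of each of the 76 member genes in siControl (x axis, log scale) and siSNRNP40 (y axis, log scale), 1 point per gene, each from 2 pooled libraries. Most mitotic genes (red) lie a little below the line of equal FPKM, and CDC25C, CENPI, KIF7, CENPBD1 and KIF24 lie outside the dashed lines at log2 fold changes of 0.322 and -0.322.

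Among the genes of mitotic entry, the cyclins were abundant and a little lower. CCNB1, cyclin B1, had the highest level of all members, with an FPKM of 285 in siControl and 256 in siSNRNP40, a log2 fold change of -0.16. CCNB2 had 58.9 and 57.8 (-0.027), and CCNA2, cyclin A2 of S and G2 phase, had 103 and 97.4 (-0.077). CDK1, the kinase they activate, had 157 and 153 (-0.044). Thus the kinase and these cyclins were below their control level, the largest difference being that of CCNB1, but CCNB2 was above it under upper-quartile scaling. The CDC25 phosphatases activate CDK1 by removing inhibitory phosphates. CDC25C (hg19 chr5:137620958-137667516) had an FPKM of 14.1 in siControl and 10.2 in siSNRNP40, a log2 fold change of -0.46, and was the lowest relative to control of the 76 members. CDC25B had 14.3 and 16.2 (0.18), so the phosphatases lay on opposite sides of their control levels. MKI67, a marker of cycling cells outside the member rule, had 68.1 in both conditions.

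The spindle kinases and TPX2 were close to control. AURKA, which matures the centrosome and spindle poles, had an FPKM of 127 and then 129 in siSNRNP40 (log2 fold change 0.019). Its activator TPX2 had 123 and 119 (-0.053), and PLK1, the polo-like kinase of mitotic entry, had 11.8 and 10.96 (-0.10). In the chromosomal passenger complex, which corrects faulty attachments, all 4 members were below control. The kinase AURKB had 46.0 and 43.7 (-0.074), its scaffold INCENP 15.5 and 13.9 (-0.16), survivin BIRC5 57.9 and 53.8 (-0.11) and borealin CDCA8 23.1 and 19.8 (-0.22). The kinase subunit was thus the nearest to control and borealin the farthest.

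Checkpoint genes spread around a median log2 fold change of -0.072, with 4 of 5 below 0. MAD2L1, which carries the wait signal to CDC20, had an FPKM of 118 and 101 (-0.22). BUB3, the adaptor of the BUB proteins at the kinetochore, had 74.5 and 66.6 (-0.16). The kinases BUB1 (128 and 122, -0.064) and TTK (48.2 and 45.9, -0.072) were nearer to control, and BUB1B, BubR1, was above it with 73.2 and 75.4 (0.042). The checkpoint's target belongs to the group with the lowest median, the genes labelled here APC/C and substrates (-0.22, with 4 of 4 below 0). This group does not hold all substrates. The B cyclins, also removed by the APC/C, were grouped with the cyclins (CCNB1 at -0.16 and CCNB2 at -0.027). CDC20, the activator of the APC/C, had 51.8 and 45.04 (-0.20). PTTG1, securin, which restrains separase until anaphase, had 269.8 and 229 (-0.24), the second highest control level of all members. The ubiquitin-conjugating enzyme UBE2C had 101 and 93.7 (-0.11), and the cullin-like subunit ANAPC2 had 3.14 and 2.65 (-0.25), a low level where a small difference in signal weighs more.

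At the outer kinetochore, 5 of 6 genes were below 0 with a median of -0.13. The NDC80 complex binds microtubules directly and has 4 subunits. Its subunits NUF2 (FPKM 74.8 and 63.6, log2 fold change -0.23), NDC80 (87.7 and 82.9, -0.082) and SPC24 (42.7 and 40.9, -0.060) were below control, and SPC25 was above it (57.5 and 60.9, 0.083). CENPF, a large kinetochore protein made in G2 and mitosis, had 172 and 147 (-0.23). It had the highest level among the KIF and CENP genes.

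The inner centromere did not lean to one side. Of 14 genes, which encode centromeric chromatin proteins and the constitutive centromere-associated network (CCAN) that joins it to the kinetochore, 7 were below 0 and 7 above, with a median log2 fold change of -0.012 that was 0.018 under upper-quartile scaling. CENPI (hg19 chrX:100354797-100417978), a CCAN subunit, had an FPKM of 26.0 in siControl and 20.2 in siSNRNP40, a log2 fold change of -0.37. CENPK, its partner in the same subcomplex, had 84.8 and 70.1 (-0.28). On the other side, CENPW, a histone-fold subunit, had 60.6 and 72.2 (0.25), the largest positive value among mitotic members, and CENPB, which binds the CENP-B box of alpha-satellite DNA, had 22.4 and 24.9 (0.15). The other 10 lay between -0.16 and 0.042. Further CCAN subunits stand in the table under older symbols that the member rule does not match. Their log2 fold changes were -0.055 for MLF1IP (CENP-U; FPKM 107 and 103), 0.11 for ITGB3BP (CENP-R; 54.3 and 58.4), 0.26 for APITD1 (CENP-S; 9.60 and 11.5) and 0.43 for STRA13 (CENP-X; 12.7 and 17.1), so 3 of these 4 were above 0. They were chosen because they complete the complex.

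Mitotic kinesins were below control in 12 of 13 cases, with a median of -0.069, but in 8 of 13 under upper-quartile scaling. KIF14, a kinesin of cytokinesis, had an FPKM of 37.8 and 30.8 (log2 fold change -0.30). KIF20B, another kinesin of cytokinesis, had 75.8 and 61.9 (-0.29), and KIF18B, which shortens astral microtubules, had 2.84 and 2.33 (-0.28). KIF2C, the microtubule depolymerase MCAK, lay close to control with 119 and 118 (-0.012), and was among those whose sign that scaling turned. KIF23, the motor of the central spindle, was the exception above 0, with 76.3 and 78.5 (0.040). Cytokinesis continues with ANLN, anillin of the cleavage furrow, at 209 and 183 (-0.19), and PRC1, which bundles microtubules of the central spindle, at 122 and 119 (-0.030), above 0 under that scaling. TOP2A, the topoisomerase that untangles sister chromatids, had 254 and 227 (-0.16). KIF4B, an intronless copy of KIF4A, and KIF2B were the mitotic kinesins below the filter. Reads can be shared between KIF4A and KIF4B, so their split is uncertain.

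**Figure D2:**
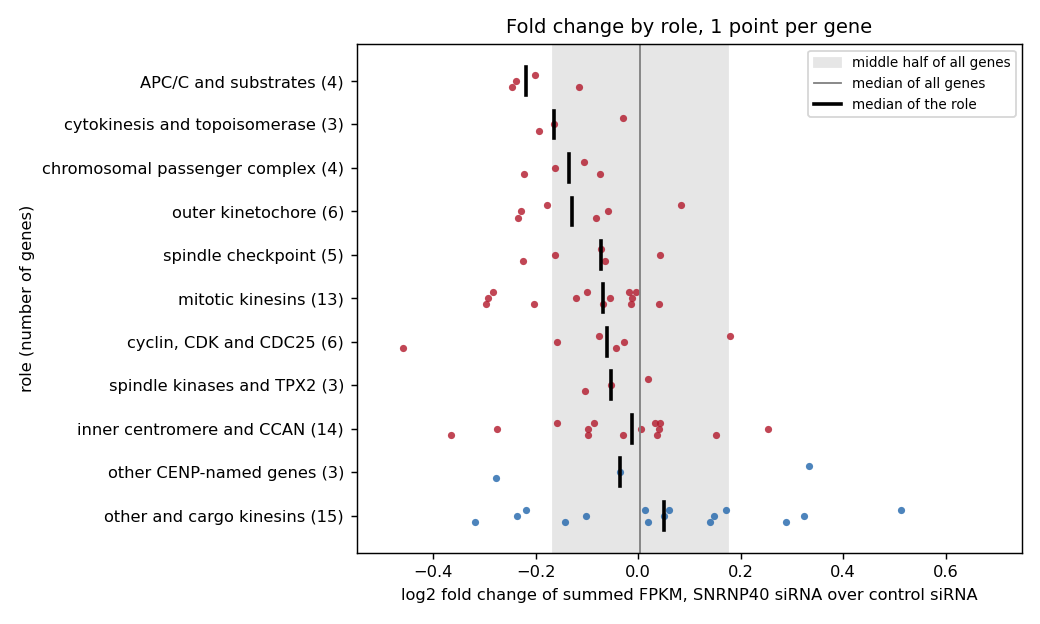
Log2 fold change (siSNRNP40 over siControl, x axis) of the 76 member genes grouped by role, 1 point per gene from pooled values, with the median of each role (black bar) and the median and interquartile range of all 12334 genes (grey). The medians run from -0.22 for the 4 genes labelled APC/C and substrates to 0.050 for other and cargo kinesins. Those of all 9 mitotic roles lie below that of all genes.

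Of 15 kinesins with other roles, 10 had a log2 fold change above 0 and 5 below it, where 49.5% of all genes were below 0. Their median was 0.050, against 0.0034 for all genes. With so few genes, no lean is read from these counts. KIF5B, the conventional kinesin that carries cargo toward the plus end of microtubules, was by far the most abundant of them and was lower, at an FPKM of 161 in siControl and 137 in siSNRNP40 (-0.24). KIF7, a regulator of Hedgehog signalling in the primary cilium, had 1.80 and 2.57 (0.51), the largest positive value and the lowest level of the 76 members above the filter. It lies in hg19 chr15:90118817-90198682, a locus of the table that also spans its neighbour TICRR, whose exons overlap KIF7 on the opposite strand by 47 bases. KIF24 (chr9:34179002-34329198), which removes tubulin at centrioles and restrains cilia, had 5.73 and 7.17 (0.323), 25.1% above control and barely past the limit of 0.322. It overlaps UBAP1 by 144 exonic bases. Whether strand was used in assigning reads is not given in the sources used here.

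KIFC3, a motor toward the minus end at cell junctions, had 17.9 and 21.8 (0.29), a sum of transcripts whose calculation the table marks as failed. KIF1B and KIF1C, transporters of the kinesin-3 family, had 9.92 and 10.9 (0.14) and 29.1 and 32.2 (0.15). KIF16B, which moves endosomes, had 2.20 and 2.48 (0.17), and KIF3A, a subunit of the motor for transport in cilia, had 9.13 and 9.52 (0.060). Below control were KIF13B, a transporter of the kinesin-3 family, with 7.90 and 6.78 (-0.22), and KIFC2, with 4.81 and 3.86 (-0.319), just inside the limit. KIFC2 shares 791 exonic bases with FOXH1 on the opposite strand. The summed FPKM of the 15 was 329.6 in siControl and 314 in siSNRNP40, a log2 ratio of -0.071 that KIF5B weighs most in. The sum and the median thus had opposite signs. Of the CENP-named genes that this grouping placed outside the mitotic roles, CENPBD1 (hg19 chr16:90036182-90067195), named for a DNA-binding domain like that of CENP-B, had 2.44 and 3.08 (0.33). CENPV, a protein that also binds microtubules, had 8.55 and 7.05 (-0.28).

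At the level of single transcripts, larger differences were seen in a few members, at shares close to those of all genes. The 90 members have 158 listed transcripts, and 112 had a mean FPKM of at least 1. Of these, 9 had an absolute log2 fold change above 1 (5 higher, 4 lower), against 10.5% of all transcripts. All 9 belonged to the 62 transcripts of members with several transcripts, where the share over all genes was 16.9%, and 0 to the 50 transcripts of members with 1. They lay in 6 genes, CDC25B, NUF2, CENPM, KIFC3, UBE2C and KIF21A. Transcripts carry identifiers of the authors' assembly, and were not matched to named isoforms here.

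CDC25B (hg19 chr20:3776400-3786761) has 3 listed transcripts, of which the leading one became the least abundant. The transcript that led in siControl had an FPKM of 8.86 there and 0.792 in siSNRNP40 (log2 fold change -3.48), and its share of the gene was 61.9% in siControl and 4.89% in siSNRNP40. The other transcripts had 3.14 and 8.29 (1.40), and 2.31 and 7.13 (1.63). The sum over the gene differed by only 0.18, since the higher and lower transcripts offset each other.

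NUF2 (chr1:163291722-163325553) had a minor transcript at 28.5 and 5.80 (-2.30), with a share of 38.1% and 9.11%. Its major transcript had 46.3 and 57.8 (0.32), and the gene as a whole was at -0.23. In CENPM (chr22:42334740-42343148), a CCAN subunit, a transcript had 2.16 and 0.381 (-2.50) while the major one had 3.31 and 5.25 (0.67), and the gene was at 0.042. In these genes the major transcript was above control and the minor one far below it. KIFC3 (chr16:57792128-57836439) showed the largest difference, 7.32 and 0.336 (-4.44), beside 10.6 and 21.5 (1.02), but the table marks the calculation for both transcripts as failed. UBE2C had a minor transcript at 1.03 and 3.67 (1.83), which held 1.01% and 3.92% of the gene, a difference of 2.90 percentage points. KIF21A, a kinesin that stabilises microtubule tips, had one at 0.493 and 1.84 (1.90), which the table marks as not tested. Below the filter, 2 further transcripts of KIF21A were lower, one with 1.62 and 0.188 and one with 0.814 and 0.0067.

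The most expressed transcript was another one in siSNRNP40 for 4 of the 26 expressed members with several transcripts, CDC25B, CENPN, KIF16B and KIF2A. Over all 5282 such genes the percentage was 14.8. The share of a gene held by its most shifted transcript differed by 20 percentage points or more in 5 of the 26, where 20.7% of all such genes did. They were CDC25B (57.0 points), KIF16B (51.8), KIFC3 (39.4, from transcripts marked as failed), CENPM (32.7) and NUF2 (28.996), while the median over the 26 was 4.91 points. CDC25C, with the lowest log2 fold change of the 76 members, had a difference in shares of 0.449 points between its 2 transcripts. So its lower level was shared by both. KIF16B, CENPN and KIF2A are named here because of these counts, after their values were seen. In siControl the leading transcripts of CENPN already lay near each other, with 51.2% and 47.8% of the gene. Those of KIF2A held 53.7% and 42.5%. The transcript of KIF16B that led in siSNRNP40 had a mean FPKM of 0.825, below the filter.

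**Figure D3:**
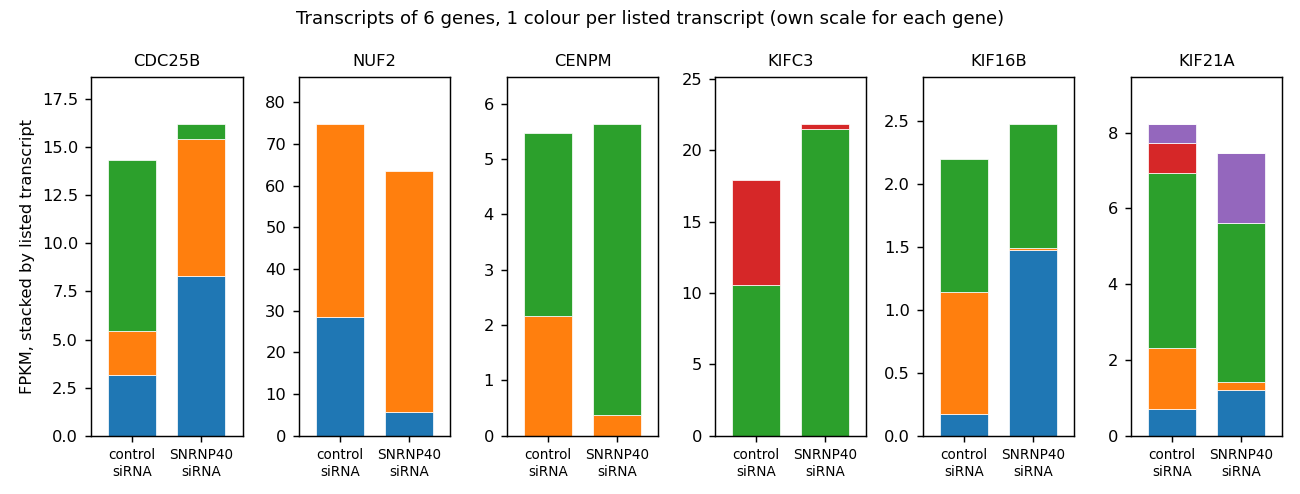
FPKM of the listed transcripts of CDC25B, NUF2, CENPM, KIFC3, KIF16B and KIF21A, stacked in 1 bar per condition (left siControl, right siSNRNP40), with 1 colour per transcript and a y axis from 0 for each gene. In CDC25B the transcript shown in green goes from 61.9% to 4.89% of the bar while the height of the bar goes from 14.3 to 16.2.

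Other genes of the same processes, outside the member rule, also lay mostly below 0 in the same pooled values. Their lists were chosen with earlier results of these data known, so they are not independent support. Over 6 lists of mitotic non-members, 93 of 95 genes had a mean FPKM of at least 1, with a median log2 fold change of -0.094. Below 0 were 68 of the 93 (73.1%), where 49.5% of all genes were. Of them 5 were below -0.322 and 3 above 0.322, where 11.5% and 11.9% of all genes were. The other APC/C subunits and activators had a median of -0.17 with 13 of 15 below 0, from ANAPC16 at -0.38 to ANAPC10 at 0.16. Condensins, which compact chromosomes, had a median of -0.18 with 6 of 8 below 0, from SMC4 (FPKM 82.3 and 66.6, -0.31) to NCAPD3 (0.036). Cytokinesis genes were below 0 in 7 of 7 cases (median -0.17), from MYH10, a non-muscle myosin, at -0.37 to CHMP4B at -0.041.

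Spindle assembly and centrosome genes had a median of -0.092 with 19 of 24 below 0 (17 under upper-quartile scaling). HAUS4, a subunit of the augmin complex that branches microtubules, had an FPKM of 25.4 and 16.1 (-0.65), and HAUS7 of the same complex had 9.84 and 13.1 (0.41). Entry and exit regulators had a median of -0.11 with 9 of 13 below 0. WEE1, the kinase that holds CDK1 inactive and so opposes the CDC25 phosphatases, had 14.6 and 9.73 (-0.58), whereas CKS2, a small CDK-binding protein, had 261 and 291 (0.16). The remaining kinetochore and checkpoint genes were nearly balanced, with a median of -0.043 and 14 of 26 below 0, from KNTC1 at -0.26 to STRA13 at 0.43. Within these processes, then, the APC/C, condensin and cytokinesis lists had the lowest medians and the kinetochore and checkpoint list the one nearest to all genes.

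**Figure D4:**
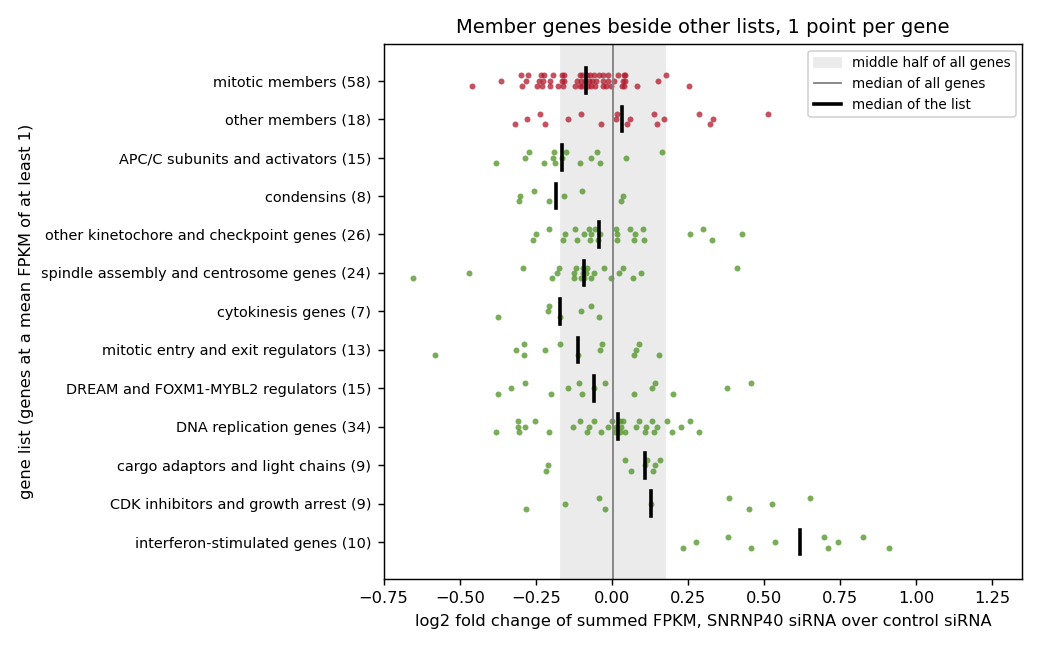
Log2 fold change (siSNRNP40 over siControl, x axis) of the member genes (red) and of 11 lists of other genes (green), 1 point per gene from pooled values, with the median of each list (black bar) and the median and interquartile range of all genes (grey). Medians of the 6 mitotic lists lie between -0.18 and -0.043, that of DNA replication genes at 0.021 and that of interferon-stimulated genes at 0.62.

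Lists from neighbouring processes had medians on both sides of that of all genes (0.0034), of which 49.5% were below 0. For the DNA replication and DREAM lists the counts lay nearer to that share, and no direction is read from them. DNA replication genes, expressed in the preceding S phase, had a median log2 fold change of 0.021, with 15 of 34 below 0, from CCNE2 at -0.38 to POLD1 at 0.29. Regulators of the DREAM and FOXM1-MYBL2 kind, which are known to act at CHR and CCAAT elements, had a median of -0.058, with 9 of 15 below 0. LIN9, a core subunit, had an FPKM of 13.5 and 10.4 (-0.37) and MYBL2 had 4.06 and 5.58 (0.46). Adaptors and light chains of cargo transport, like the cargo kinesins, had a median above 0 (0.11, with 2 of 9 below 0), from MAPK8IP3 at -0.22 to KIFAP3 at 0.16.

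Values of other kinds moved with the mitotic genes, and their part in the result was not tested. Fold change went with GC content across genes: for the 10325 genes with an annotated canonical transcript, Spearman's rho between GC percent and log2 fold change was 0.20, and over 57 mitotic members it was 0.24. These are correlations across genes of the same libraries, and genes are not replicates. For the number of exons rho was -0.10 over all genes and -0.29 over the mitotic members, for transcript length -0.13 and -0.21, and for genomic span -0.15 and -0.17. Mitotic members had a median GC content of 44.3%, against 47.5% for all genes. Below 40% GC the median log2 fold change was -0.12 for 17 mitotic members and -0.090 for all genes, the nearest of the 5 ranges. From 40 to 45% it was -0.077 for 13 members and -0.041 for all genes, and from 45 to 50% it was -0.053 for 9 and 0.015. From 50 to 55% it was -0.083 for 6 and 0.040, and from 55% it was -0.089 for 12 and 0.052. The mitotic median was thus below that of all genes in each of the 5 ranges, by the least at low GC.

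Interferon-stimulated genes, which respond to double-stranded RNA among other signals, had a median log2 fold change of 0.62, with 10 of 10 above 0 and 8 above 0.322, from OAS2 at 0.23 to IFIH1 at 0.91 (FPKM 12.8 and 24.1). CDK inhibitors and other growth arrest genes had a median of 0.13, with 5 of 9 above 0 and 4 above 0.322, where 11.9% of all genes were, from CDKN1B at -0.28 to GADD45A at 0.65 (20.9 and 32.8). The interferon-stimulated genes were thus higher in the condition in which most mitotic genes were slightly lower. Of the 12 growth arrest genes listed, 9 had a mean FPKM of at least 1. Of these 9, 4 were below 0, where 49.5% of all genes were. Below -0.322 were 0 of 9, where 11.5% of all genes were. Both counts are near those shares for so few genes.

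**Figure D5:**
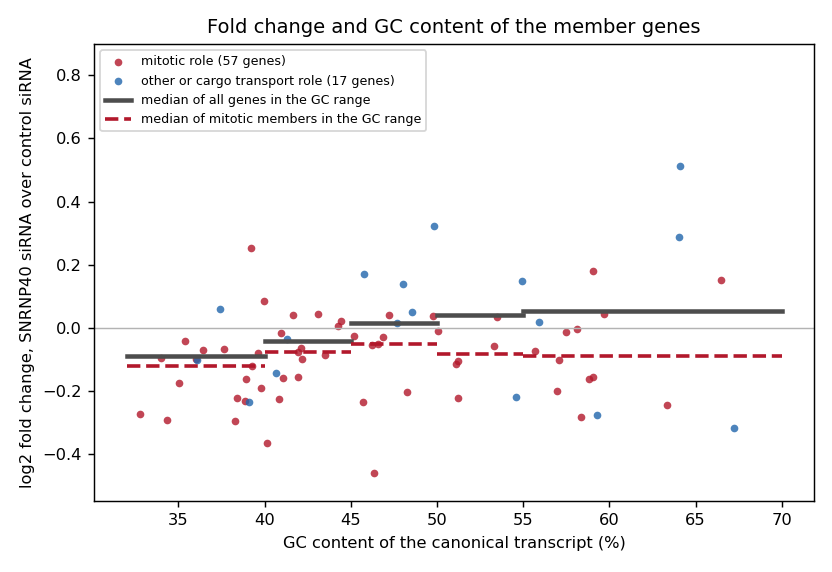
GC content of the canonical transcript (x axis, percent) and log2 fold change (y axis) of 57 mitotic members (red) and 17 other members (blue), with the median of all genes (grey bars) and of mitotic members (dashed red bars) in 5 ranges of GC content. In each range the dashed bar lies below the grey one, by the least at low GC.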

How the data were processed

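RNA of 4 libraries was sequenced, 2 per condition. The deposited FPKM values are cuffdiff estimates for single transcripts, made by the authors after trimming with cutadapt 1.2.1, mapping to hg19 with TopHat2 2.0.8 and assembly with Cufflinks, and pooled per condition with Cuffdiff 2.0.2, per the submitters' processing notes. Cuffdiff divides fragments between overlapping transcripts by a model, so FPKM of single transcripts depends on that division. The table also holds the authors' fold changes, p-values and q-values, which were not used.

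FPKM was summed per gene symbol, 44578 transcripts of 23217 symbols, and a mean FPKM of at least 1 was required. Ratios of pooled values were described by size (a log2 fold change past 0.322 in either direction, or past 1, the size the study used with no base of the logarithm stated). The planned limma test was not run, since the table holds no values per library, and the libraries of a condition may differ only technically or by siRNA.

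Members, roles and lists were chosen with earlier results of these data known. The roles of CENPJ and CENPV were corrected after their values were seen, which left the mitotic set as it was. Genes named are SNRNP40, the 29 listed by name, the 10 largest falls, 10 largest rises and 5 highest levels among KIF and CENP genes, transcripts past an absolute log2 fold change of 1, and the extremes of each list. GC content came from canonical transcripts of GENCODE on GRCh37 (83.7% of genes matched), and promoters from RefSeq. Python 3.11.15, pandas 2.3.3 and scipy 1.17.1 were used. The steps were tested on simulated data, in which 200 genes changed by large folds were all called past an absolute log2 fold change of 1. Shifts as small as those reported here were not simulated. Alternatives changed the filter, pseudocount, scaling and the summing of transcripts.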

Additional observations from a re-analysis of the deposited data

How the results depend on the processing

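Of 54 alternative values, 41 stayed within 0.1 on the log2 scale or within 1.5 times of the count reported, and 13 moved further. All 13 were counts. The reported medians (-0.073, -0.084 and 0.034) were smaller in size than 0.1, so a median of 0 would also have counted as staying. No median changed sign. The median log2 fold change ranged from -0.10 to -0.043 over all members, from -0.10 to -0.054 over mitotic members and from 0.013 to 0.065 over the others. Taking the most expressed transcript of each gene instead of the sum gave 4 members lower and 6 higher than the limit of 0.322 on the log2 scale, and 2 past 1 (3.74% of all genes under that setting). With a filter at an FPKM of 0.1, 4 were lower and 1 was past 1 (5.50% of all genes), and with no filter 4 were lower, 7 higher and 4 of 85 past 1 (10.8% of all genes). A filter at 5 left 1 higher, as did a pseudocount of 1, and among genes with a single transcript 1 was lower. Transcripts past 1 numbered 3 with the filter at 5 and 17 with that at 0.1. The share of all genes past 0.322, and of all transcripts past 1, is not given for these settings. These counts therefore cannot be set against all genes.

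No paired analysis was possible because the pooled columns carry no replicate numbers, and leaving out a replicate was not possible for the same reason. Depth is unknown and the libraries are pooled, so no difference was set against counting error or the spread between replicates here. Assembled transcripts of 1 gene share fragments, and overlapping neighbours and copies such as KIF4B and the PTTG1 family can share reads too.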
